A study of Mus musculus with 4 samples.

Results

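Chemokines are small secreted proteins that direct the migration of leukocytes, and their receptors are the cell surface proteins that read them. The genes described here are the chemokine ligands and receptors of mouse liver on 4 Affymetrix arrays, chosen by gene symbol: Cxcl, Ccl, Cx3cl or Xcl for ligands and Cxcr, Ccr, Cx3cr, Xcr or Ackr for receptors, each followed by a number. The rule found 54 of the 18194 genes that have a probe set with a single symbol. These are 33 ligands and 21 receptors, measured by 86 probe sets. Where a gene had several probe sets, its value is that of the probe set that was brightest on average over all arrays. A log2 value of 6 or more on any array was reached by 42 members, 27 ligands and 15 receptors, and these are described with their values. Of the 42, 33 were at or above this level on all 4 arrays, and 6 on the DS6 array alone (Cxcl5, Ccl7, Ccr1, Ccr7, Cxcr4 and Cxcr6). Just inside the limit, Ccl7 had a highest value of 6.04 and Ccr7 of 6.05, and just outside it Ccr1l1 had 5.97 and Ccl1 5.93.

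The study asked how loss of ribosomal protein S6 (Rps6) alters the liver and whether an increase in c-Myc changes that response. There is 1 array for each genotype, each hybridized with RNA pooled in equal parts from 3 non-fasted male mice of 5 weeks. DS6 Myc livers carried an Rps6 lox/lox allele, Albumin-Cre and an Albumin-c-Myc transgene. DS6 livers carried the Rps6 lox/lox allele and Albumin-Cre. Myc livers carried the Albumin-c-Myc transgene and had intact Rps6, and WT livers had neither change, the WT mice of the study being Cre-negative. Albumin-Cre recombines in hepatoblasts and so in the hepatocytes and bile duct cells they give rise to, the deletion was described by the study as incomplete and regional, and leukocytes and other non-parenchymal cells keep Rps6. The mice were of a mixed hybrid strain.

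In background, inflammatory chemokines are made on demand by hepatocytes, Kupffer cells, endothelium, stellate cells and bile duct cells when cytokine, damage or microbial signals reach them, while homeostatic chemokines such as Cxcl12 are made steadily. Most receptors signal through inhibitory G proteins and are carried by leukocytes, so that receptor mRNA in whole liver largely tracks which blood cells are present. Atypical receptors (Ackr) bind chemokines without this signal and clear or transport them.

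The arrays had almost equal medians, 6.85 to 6.88 on the log2 scale. With 1 array per genotype there is no replicate check, no test between genotypes could be run, and all differences below are differences between pooled samples. Rps6 signal from the 9 probe sets that it shares with the pseudogene Rps6-ps4 had a median log2 ratio of -1.76 in DS6 Myc over Myc and of -0.29 in DS6 over WT. Where these probes lie with regard to the deletion was not analysed here, so they do not check the genotype. The 2 probe sets of Rps6 alone disagreed, with -2.48 and 2.59 in DS6 Myc over Myc and -0.79 and 1.47 in DS6 over WT. Myc mRNA was above WT by 3.04 in DS6 Myc and by 3.35 in Myc on the log2 scale. Hepatocyte markers were high and alike, with Alb between 15.38 and 15.46. The WT array stood apart from the other arrays and from its label in 2 respects. Xist, an RNA made from the silenced X of female cells, was at 6.33 in DS6 Myc, 5.88 in DS6 and 6.29 in Myc, against 11.84 in WT, although all pools were described as male. Y-linked genes were measured on all 4 arrays, with Kdm5d at 8.25 in DS6 Myc, 8.14 in DS6, 8.07 in Myc and 7.70 in WT. Pancreatic enzyme genes, 8 of which were measured, lay 2-fold or more below WT for 8 genes in DS6 Myc, 8 in DS6 and 6 in Myc. The counts of members higher in DS6 are therefore also given with the Myc array in place of WT, as are single values that cross 2-fold or move by more than 1.5 times.

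Ligands were more often higher in DS6 liver than genes at large. For receptors the count depended on members that reached the limit through DS6. Of the 27 ligands, 11 were at least 2-fold higher in DS6 than in WT (40.7%) and 0 were lower by this measure. The median log2 ratio of the ligands was 0.33. Of the 15 receptors, 4 were higher by 2-fold or more (26.7%) and 0 lower, and their median was 0.19. Over all 14359 genes that reached log2 6 on any array, 9.04% were at least 2-fold higher and 3.2% at least 2-fold lower, and the median was -0.01. A member that reached the limit through DS6 entered the count because it was high there. Among members at or above log2 6 on all 4 arrays, 10 of 25 ligands and 1 of 8 receptors (Cx3cr1) were higher and 0 of either lower, where 8.21% of 13376 such genes were higher. Over Myc these counts were 10 of 25 ligands and 0 of 8 receptors. Over all 54 members 15 were higher than in WT and 0 lower, around a median of 0.17. With Myc in place of WT, 11 ligands and 4 receptors were at least 2-fold higher in DS6, against a background of 8.8%. Of the 15 members higher over WT, 14 were also higher over Myc, as were 1083 of the 1298 genes in all that were higher over WT. Both comparisons use the DS6 array by which the 15 were picked, so this overlap is no separate support. The exception among the 15 was Cx3cr1 (0.68), and Cxcr6 passed the limit over Myc (1.09). The difference between the shares of ligands and receptors was not tested, since genes are not replicates.

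**Figure D1:**
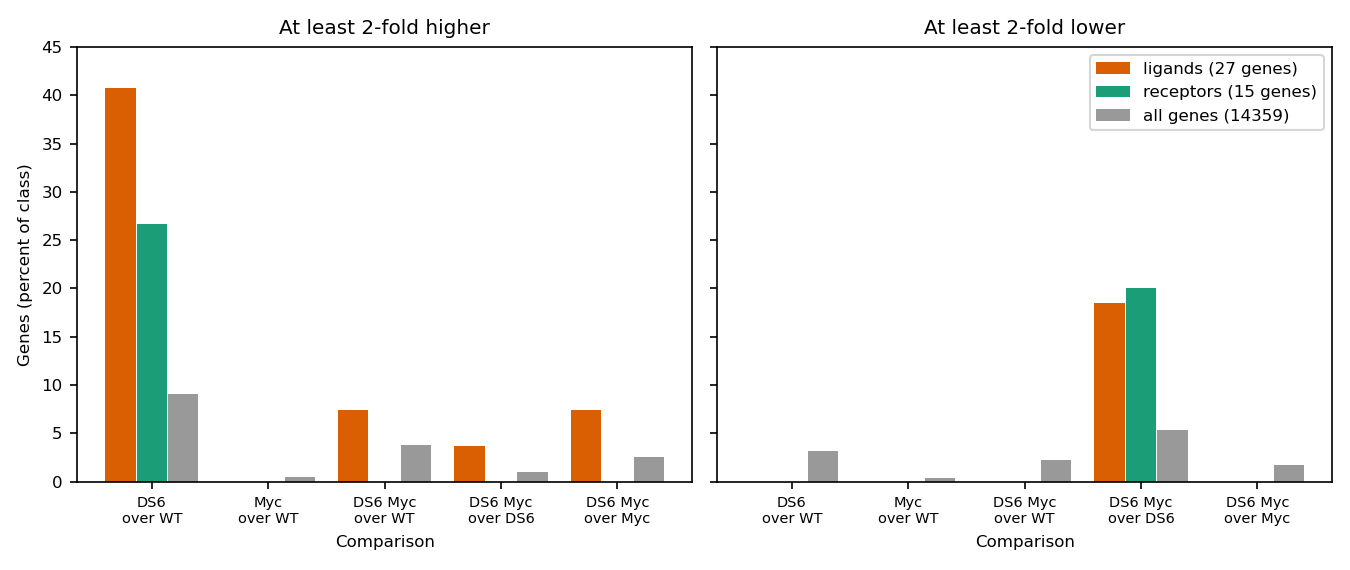
Share of genes (percent of each class, vertical axis) at least 2-fold higher (left) and at least 2-fold lower (right) in 5 comparisons between single arrays (horizontal axis), for 27 ligands, 15 receptors and 14359 genes in all. In DS6 over WT 40.7% of ligands and 26.7% of receptors were higher, against 9.04% of all genes.

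Most markers of myeloid cells were higher in the same liver. Over all genes at log2 6 on any array, 9.04% were at least 2-fold higher in DS6 than in WT. Of 10 macrophage and Kupffer cell genes, 9 were at least 2-fold higher in DS6 than in WT, and their summed level on the log2 scale was 14.03 in DS6 Myc, 15.61 in DS6, 13.21 in Myc and 13.37 in WT. Of 8 neutrophil genes, 5 were higher in DS6, with summed levels of 9.96 in DS6 Myc, 14.55 in DS6, 9.84 in Myc and 9.98 in WT. All 3 measured monocyte genes were higher in DS6, with summed levels of 7.50 in DS6 Myc, 10.42 in DS6, 7.42 in Myc and 7.32 in WT. Chil3, at 9.95 in DS6, weighed most in the DS6 sum. Of 5 T cell genes 0 were higher in DS6 and their summed levels, over 6 measured genes, lay between 9.82 and 9.87 on the 4 arrays. In DS6 1 of 5 natural killer cell genes, 1 of 5 dendritic cell genes, 1 of 6 B and plasma cell genes and 0 of 7 genes of sinusoidal endothelium were higher than in WT. All 5 biliary and progenitor genes were higher in DS6, as were 4 of 8 stellate cell and fibroblast genes, with a median log2 ratio of 0.81. With Myc in place of WT the counts of these 10 lists were the same, except 5 of 8 for stellate cells and fibroblasts. Of all genes 8.8% were higher in DS6 over Myc. The part of these cells in the chemokine values was not tested, and in whole liver more cells of a type and more RNA per cell cannot be told apart.

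Among the CXC ligands outside the groups that act on neutrophils and on Cxcr3, 3 of 5 were at least 2-fold higher in DS6 than in WT, and Cxcl13 had the largest ratio of the family. Cxcl13, which attracts B cells through Cxcr5 and is a homeostatic chemokine of lymphoid follicles, had log2 values of 7.47 in DS6 Myc, 12.41 in DS6, 7.83 in Myc and 8.13 in WT. It was 19.4-fold higher in DS6 than in WT, and DS6 was the one array that stood apart. Its other probe set had 6.65 in DS6 Myc, 13.76 in DS6, 6.61 in Myc and 6.89 in WT, a log2 ratio of 6.87 in DS6 over WT. Its receptor Cxcr5 stayed under 6 on all arrays (highest value 5.16), and the B cell genes Cd79a and Ms4a1 had log2 ratios of 0.13 and -0.28 in DS6 over WT, while the plasma cell gene Jchain was at 10.59 in DS6 and 7.10 in WT. Cxcl14, an epithelial chemokine, had log2 values of 7.38 in DS6 Myc, 9.63 in DS6, 6.98 in Myc and 6.80 in WT, which makes it 7.09-fold higher in DS6 than in WT. Its second probe set had 6.93, 9.93, 5.68 and 4.93 in DS6 Myc, DS6, Myc and WT. By that probe set Cxcl14 in DS6 Myc was 1.99 above WT on the log2 scale, and by the first it was 0.58 above. The second probe set is under 6 in Myc and WT, so its ratios over them are uncertain in size.

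Cxcl16, a membrane-bound ligand and scavenger receptor that is shed to attract Cxcr6-bearing lymphocytes, was at 9.11 in DS6 Myc, 10.34 in DS6, 8.78 in Myc and 8.67 in WT. Its second probe set gave a larger ratio in DS6 over WT, 2.18 against 1.67. Cxcl12, a homeostatic ligand of Cxcr4 and Ackr3, was near WT in DS6 by the probe set used. It had 11.17 in DS6 Myc, 11.84 in DS6, 11.79 in Myc and 11.97 in WT. Over Myc its log2 ratio in DS6 was 0.05 by this probe set and -0.15 and -0.60 by its others. All 3 of its probe sets were below WT in DS6, by log2 ratios of -0.57, -0.53 and -0.13, and DS6 Myc was the lowest array for 2 of the 3. By one of those 2, not the one used here, Cxcl12 was more than 2-fold lower in DS6 Myc than in WT (-1.08). Cxcl17, a mucosal chemokine, lay between 7.85 and 8.21 on the 4 arrays.

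The ligands of Cxcr3, a receptor of activated T cells and natural killer cells, are the classic chemokines of the interferon response. By the probe sets used Cxcl9 and Cxcl10 were higher in DS6 than in WT, and Cxcl11 was not. Cxcl10 had log2 values of 9.78 in DS6 Myc, 10.41 in DS6, 8.32 in Myc and 7.59 in WT. It was 7.05-fold higher in DS6 than in WT, and WT was the lowest array. Over Myc its log2 ratio in DS6 was 2.08 in place of 2.82. Cxcl9 had 9.19 in DS6 Myc, 10.07 in DS6, 8.64 in Myc and 8.60 in WT, and was 2.77-fold higher in DS6 than in WT. The other Cxcl9 probe set, under 6 on all arrays, had a log2 ratio of -0.01 in DS6 over WT. Cxcl11 had 7.73 in DS6 Myc, 6.69 in DS6, 6.86 in Myc and 7.15 in WT. Here DS6 was the lowest array and DS6 Myc the highest, a log2 ratio of 1.04 in DS6 Myc over DS6. Its other probe set was under 6 on all arrays, with 0.04 in DS6 Myc over DS6. The RefSeq gene table of the reference strain lists Cxcl11 as a transcribed pseudogene.

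Among the CXC ligands that attract neutrophils through Cxcr2, the result depended on the gene and, for Cxcl1, on the probe set. Cxcl5, an inducible ligand of epithelial cells, had 6.30 in DS6 against 4.18 in DS6 Myc, 4.17 in Myc and 4.14 in WT. The 3 low values are under 6, so its ratio of 4.46-fold in DS6 over WT is uncertain in size. Cxcl1, an acute phase chemokine that hepatocytes can make, was at 10.13 in DS6 Myc, 10.09 in DS6, 10.21 in Myc and 9.91 in WT by the probe set used. Its other probe sets had log2 ratios of 2.05 and 1.5 in DS6 over WT, with 11.22 and 10.69 in DS6 against 9.16 and 9.19 in WT. Cxcl15, known as lungkine in the mouse, lay between 6.19 and 6.43. Cxcl2 and Cxcl3 stayed under 6 on all arrays.

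The 250 bases before the annotated start are shown for 4 CXC ligands, taken from RefSeq on GRCm38.p6. Cxcl10 stayed above WT in DS6 Myc. Cxcl13 and Cxcl14 had the largest ratios in DS6 over WT among CXC ligands by the probe sets used. The ratio of Cxcl14 (2.83) was near that of Cxcl10 (2.82). By its second probe set Cxcl14 also stayed above WT in DS6 Myc (1.99). The probe sets of Cxcl1 disagreed. Capitals mark matches on either strand to the NF-κB consensus, to a pair of GAAA copies with 2 bases of any kind between them (the interferon response motif) and to TGANTCA (the AP-1 motif).
Cxcl10, chr5:92348890-92349139, minus strand: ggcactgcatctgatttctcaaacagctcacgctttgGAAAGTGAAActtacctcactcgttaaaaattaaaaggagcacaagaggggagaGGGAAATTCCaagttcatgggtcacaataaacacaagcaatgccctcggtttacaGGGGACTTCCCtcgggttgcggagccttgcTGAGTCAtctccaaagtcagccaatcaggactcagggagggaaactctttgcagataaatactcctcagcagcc
Cxcl14, chr13:56296552-56296801, minus strand: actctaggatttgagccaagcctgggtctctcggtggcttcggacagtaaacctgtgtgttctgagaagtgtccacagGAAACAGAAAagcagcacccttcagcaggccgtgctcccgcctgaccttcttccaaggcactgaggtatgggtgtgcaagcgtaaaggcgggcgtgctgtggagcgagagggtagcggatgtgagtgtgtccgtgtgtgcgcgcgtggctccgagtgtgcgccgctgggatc
Cxcl1, chr5:90890995-90891244, plus strand: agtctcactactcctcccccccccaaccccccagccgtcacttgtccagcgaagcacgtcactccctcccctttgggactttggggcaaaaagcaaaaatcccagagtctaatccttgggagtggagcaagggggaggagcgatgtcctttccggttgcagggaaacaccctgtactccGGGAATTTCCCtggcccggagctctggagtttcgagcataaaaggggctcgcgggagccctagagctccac
Cxcl13, chr5:95956689-95956938, plus strand: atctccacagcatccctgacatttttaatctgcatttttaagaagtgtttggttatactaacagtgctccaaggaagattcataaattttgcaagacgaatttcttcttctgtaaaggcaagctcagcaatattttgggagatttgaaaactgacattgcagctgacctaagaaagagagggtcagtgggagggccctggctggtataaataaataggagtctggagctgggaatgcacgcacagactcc

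The Cxcl10 window held matches to each of the 3 motifs, with the NF-κB consensus at 2 separate places, Cxcl14 one to the interferon response motif, Cxcl1 one to the NF-κB consensus read on both strands, and Cxcl13 none. Windows were given for 41 of the 54 members. An NF-κB match was found for 11 of these 41, against 7.25% of 32851 windows of the same length, an interferon response match for 2, against 2.98%, and an AP-1 match for 5, against 6.75%. Of the 10 members with a window that were at least 2-fold higher in DS6 than in WT, 2 had an NF-κB match (Ccr1 and Cxcl10) and 2 an interferon response match (Cxcl10 and Cxcl14). These matches are letters in a window and were chosen with the values known, so they say nothing on binding.

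Of the CC ligands, Ccl6, Ccl2, Ccl8, Ccl24 and Ccl5 were at least 2-fold higher in DS6 than in WT, with the largest ratio for Ccl6. Ccl6, a mouse chemokine of myeloid cells that acts through Ccr1, had log2 values of 9.92 in DS6 Myc, 12.01 in DS6, 8.53 in Myc and 8.62 in WT. It was 10.5-fold higher in DS6 than in WT, and its probe sets gave nearly the same ratio, 3.40 and 3.37. Ccl9, its close relative and the neighbouring gene on chromosome 11, had 11.74 in DS6 Myc, 12.48 in DS6, 12.14 in Myc and 12.31 in WT, a log2 ratio of 0.17 in DS6 over WT. Ccl5, a lymphocyte and macrophage product that attracts T cells and monocytes, had 7.80 in DS6 Myc, 8.57 in DS6, 7.53 in Myc and 7.55 in WT. Ccl4 lay between 7.28 and 7.40 on the 4 arrays, and Ccl3 stayed under 6.

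Ccl2, the main attractant of Ccr2-bearing monocytes, had 8.02 in DS6 Myc, 8.58 in DS6, 7.30 in Myc and 7.34 in WT, and was 2.36-fold higher in DS6 than in WT. Ccl8 had 6.69 in DS6 Myc, 7.65 in DS6, 6.50 in Myc and 6.49 in WT. Ccl7, another monocyte attractant, lay between 5.62 and 6.04, and Ccl12 stayed under 6. These 4 genes lie close together on chromosome 11, and 2 of them passed 2-fold in DS6 over WT. Ccl24, which attracts eosinophils through Ccr3, had 8.65 in DS6 Myc, 8.96 in DS6, 7.96 in Myc and 7.89 in WT. For Ccl24 both arrays with the Rps6 deletion were above both arrays without it. This was also so for Ccl2, Ccl5, Ccl6 and Ccl8, and for other members such as Cxcl9 and Cxcl10. All of these were at least 2-fold higher in DS6 over WT, so part of the order was fixed by that choice. In DS6 Myc over Myc, Ccl5 had 0.27 and Ccl8 0.19, under the SD of 0.28 between probe sets of a gene. The order was not counted over all genes.

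The other CC ligands stayed within 2-fold in DS6 over WT. Ccl17 and Ccl22, ligands of Ccr4, had ratios of 0.49 and 0.02. Ccl20, the ligand of Ccr6, had 0.01, and Ccl25, a gut and thymus chemokine, had 0.06. Ccl27a and Ccl28, epithelial ligands of Ccr10, were among the lowest ligands, with -0.80 and -0.45. The Ccl28 value depends on the probe set, since its others had 0.62 and 0.78. The membrane-bound Cx3cl1 had 0.18 by the probe set used and 1.30 by another at 8.31 in DS6 and 7.01 in WT. Xcl1, an attractant of cross-presenting dendritic cells, had 0.33.

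**Figure D2:**
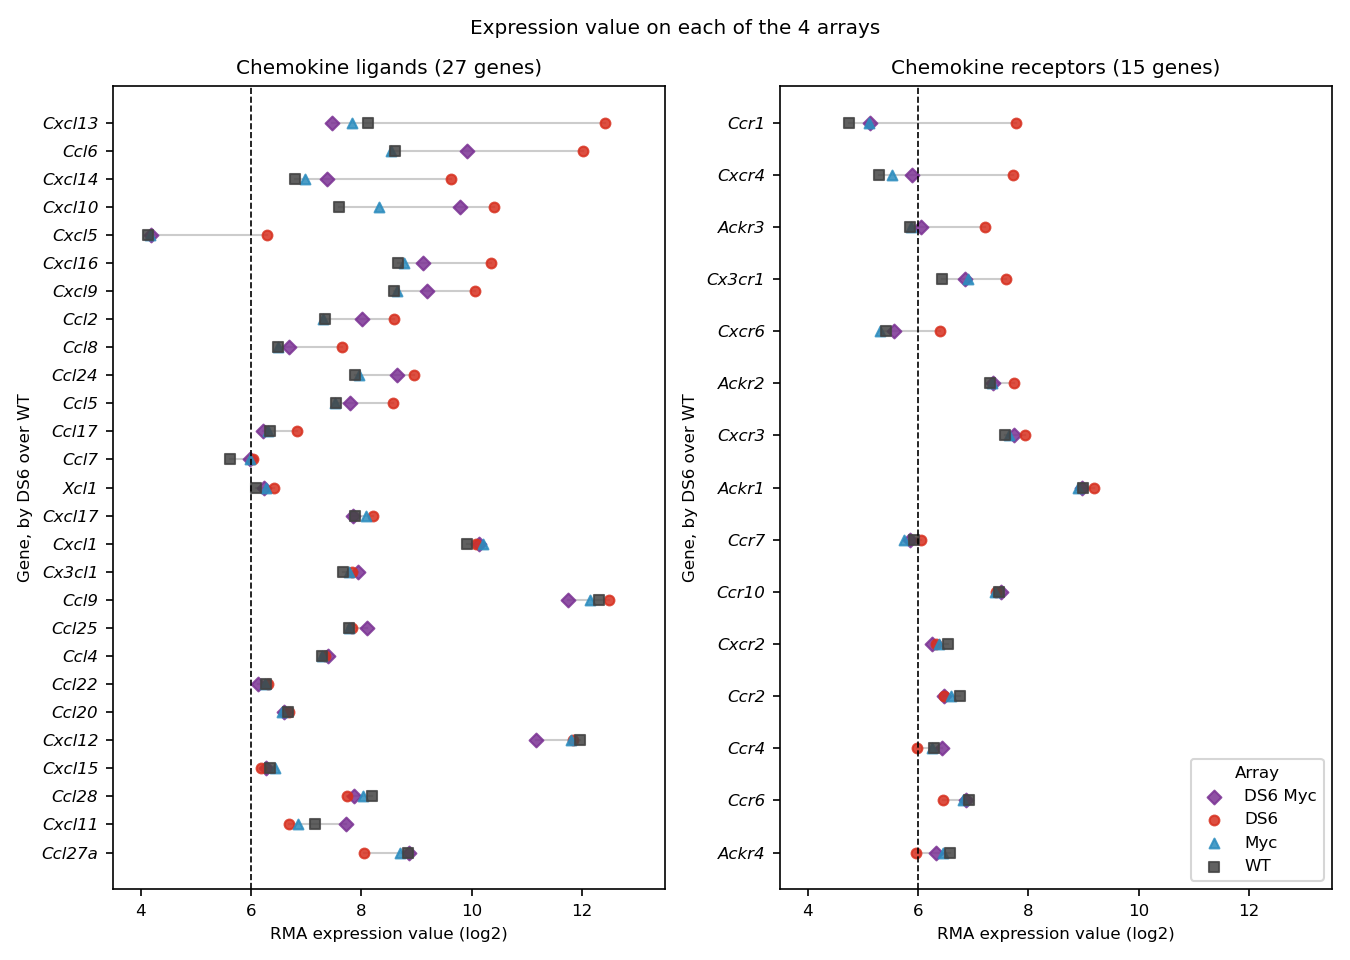
Log2 expression value (horizontal axis) of the 27 ligands and 15 receptors that reached log2 6 (dashed line) on any array, 1 point per array of pooled RNA, ordered by DS6 over WT. DS6 is the rightmost point for Cxcl13 (12.41) and Ccr1 (7.78), while Cxcl10 in DS6 Myc (9.78) lies nearer to DS6 than to WT.

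By the probe sets used Ccr1 and Cxcr4 had the largest ratios among receptors. Ccr1, a receptor of macrophages, monocytes and neutrophils, had 7.78 in DS6, against 5.13 in DS6 Myc, 5.11 in Myc and 4.76 in WT. Cxcr4, the receptor of Cxcl12 on most leukocytes, had 7.73 in DS6, against 5.89 in DS6 Myc, 5.54 in Myc and 5.29 in WT. For both, DS6 stood alone and the other 3 values are under 6, so the folds of 8.14 and 5.41 in DS6 over WT are uncertain in size. Ccr1 has a second probe set, under 6 on all arrays, with a ratio of 0.64, and by the mean of both its ratio was 1.83, below that of Cxcr4 (2.44).

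Cx3cr1, the fractalkine receptor of monocytes and macrophages, had 6.85 in DS6 Myc, 7.59 in DS6, 6.90 in Myc and 6.43 in WT. WT was its lowest array, and the ratio of 1.16 in DS6 over WT became 0.68 over Myc. Ackr3, an atypical receptor that takes up Cxcl12 and Cxcl11 and is found on endothelium, had 6.05 in DS6 Myc, 7.21 in DS6, 5.88 in Myc and 5.85 in WT. Cxcr6, the receptor of Cxcl16 on liver-resident lymphocytes, had 5.57 in DS6 Myc, 6.39 in DS6, 5.31 in Myc and 5.42 in WT, just under 2-fold in DS6 over WT. Its second probe set, under 6 on all arrays, had ratios in DS6 of 0.27 over WT and 0.40 over Myc. Ackr3 and Cxcr6 were under 6 in Myc and WT, so their ratios are uncertain in size.

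The remaining described receptors were within 2-fold by the probe set used. Cxcr3 had a ratio of 0.35 in DS6 over WT, Ackr2, which clears inflammatory CC chemokines, 0.44, and Ackr1, the chemokine-binding protein of red cells and venules, 0.19. The lymphoid receptors Ccr7 and Ccr10 had 0.13 and -0.06, Ccr4 had -0.30 and Ccr6 -0.49. Cxcr2, the main chemokine receptor of neutrophils, had 6.26 in DS6 Myc, 6.33 in DS6, 6.38 in Myc and 6.55 in WT, a ratio of -0.22 in DS6 over WT. The 8 genes of the neutrophil list had ratios between 0.06 (Elane) and 5.90 (S100a9), with a median of 2.75. Ccr2, the receptor of Ccl2, had -0.28 by the probe set used, and 1.64 and 1.63 by 2 others that were at 6.81 and 6.50 in DS6 and at 5.17 and 4.87 in WT. Ackr4, which clears Ccl19, Ccl21 and Ccl25, had -0.61 by the probe set used and 0.70 and 0.66 by its others. The receptors Ccr1l1, Ccr3, Ccr8, Ccr9, Cxcr5 and Xcr1 were under 6 on all arrays.

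**Figure D3:**
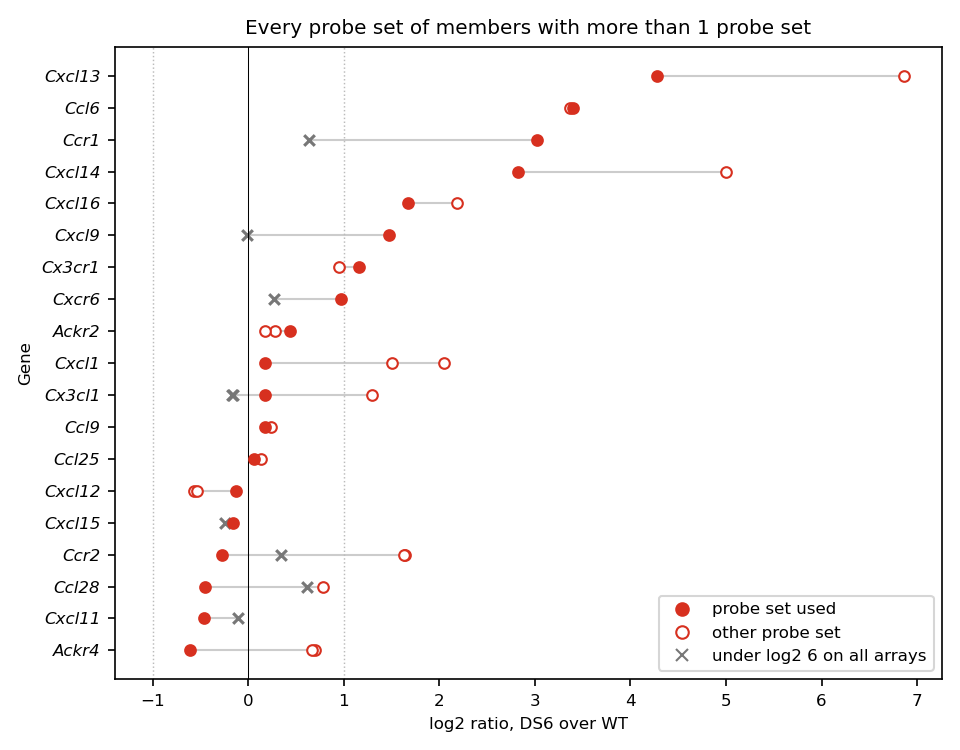
Log2 ratio in DS6 over WT (horizontal axis) of each probe set of the 19 described members with more than 1 probe set, with the probe set used filled, others open, and probe sets under log2 6 on all arrays as crosses. The used probe sets of Cxcl1 (0.18), Cx3cl1 (0.18) and Ccr2 (-0.28) lie below other probe sets of the same gene at 2.05, 1.30 and 1.64.

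Ligands were next set beside their receptors. Among 20 known ligand and receptor pairs with both partners described, both were at least 2-fold higher in DS6 than in WT in 2 pairs, Ccl6 with Ccr1 and Ccl5 with Ccr1. The ligand alone was higher in 5 pairs, among them Cxcl10 with Cxcr3 and Cxcl5 with Cxcr2, and the receptor alone in 5, among them Cxcl12 with Cxcr4 and with Ackr3. Neither was higher in 8. Over Myc both partners were higher in 3 pairs, the added one being Cxcl16 with Cxcr6 (1.57 and 1.09). The ligand was higher in 7 of the 20 pairs and the receptor in 7, over WT as over Myc. By probe sets not used, Ccl2 with Ccr2 and Cx3cl1 with Cx3cr1 would join the pairs with both partners higher over WT. Cxcl1 with Cxcr2 would then join those with the ligand alone higher. Pairs that share a gene are not independent of each other. Cxcl5, Ccl7, Ccr1, Cxcr4 and Cxcr6 reached log2 6 on the DS6 array alone, so their pairs are among the 20 through DS6. These include all the pairs with both partners higher, over WT and over Myc. The pair counts follow in part from this limit and from which pairs were listed. Ackr3 is the only atypical receptor in the list, and Ccl8 and Cxcl14, both higher in DS6 over WT, have no pair. The pair counts are not read against the share of all genes, 9.04% over WT and 8.8% over Myc.

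In Myc liver, which had intact Rps6, the family lay near WT. Of 27 ligands 0 were at least 2-fold higher and 0 lower in Myc than in WT, and of 15 receptors likewise 0 and 0, where 0.522% of all genes were higher and 0.425% lower. The medians were -0.00 for ligands and -0.08 for receptors. The largest ratio was that of Cxcl10, 0.74, followed by Cx3cr1 at 0.48.

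In DS6 Myc liver 13 of the 15 members that were high in DS6 lay within 2-fold of WT by the probe sets used, as did 959 of the 1298 genes in all that were higher in DS6. Cxcl14 is among the 13, but its other probe set was 1.99 above WT and the mean of both 1.29. Of the 27 ligands, 5 were at least 2-fold lower in DS6 Myc than in DS6 (Cxcl13, Cxcl14, Cxcl5, Ccl6 and Cxcl16) and 1 was higher (Cxcl11). Of the 15 receptors, 3 were lower (Ccr1, Cxcr4 and Ackr3) and 0 higher. Over all genes 5.37% were lower and 0.954% higher. Those 3 receptors were under log2 6 in both Myc and WT and entered through the arrays where they were high, so their count is not read against this share. Of members at log2 6 on all arrays, 4 of 25 ligands and 0 of 8 receptors were lower, where 4.68% of 13376 genes were. The log2 ratios of the lower members in DS6 Myc over DS6 were -4.94 for Cxcl13, -2.65 for Ccr1, -2.25 for Cxcl14, -2.11 for Cxcl5, -2.09 for Ccl6, -1.84 for Cxcr4, -1.23 for Cxcl16 and -1.16 for Ackr3. The other 7 of the 15 members that were higher in DS6 over WT were also lower in DS6 Myc than in DS6, by less than 2-fold. These 15 were picked by their DS6 values, which also enter this comparison, so their direction in it is no separate support.

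Against the arrays with intact Rps6, 2 members remained past 2-fold in DS6 Myc, both ligands. On the log2 scale Cxcl10 lay 2.20 above WT and 1.46 above Myc, and Ccl6 1.31 above WT and 1.39 above Myc. Over WT that is 2 of 27 ligands higher, 0 of 15 receptors higher and 0 of either lower, with a background of 3.77% higher and 2.27% lower. Over Myc the counts were again 2 of 27 ligands and 0 of 15 receptors higher and 0 of either lower, with 2.51% of all genes higher and 1.71% lower. These shares are small counts near the background. Below 2-fold, Cxcl11 (0.87), Ccl2 (0.72) and Ccl24 (0.69) had the next largest ratios in DS6 Myc over Myc by the probe sets used, and Cxcl12 had the lowest (-0.62). By probe sets not used, Cxcl14 (1.25) and Ccl25 (1.09) passed 2-fold in this comparison, and by the mean of its probe sets Cxcl11 had 0.41. Of the macrophage and Kupffer cell genes 3 of 10 were at least 2-fold higher in DS6 Myc over Myc, and of the neutrophil genes 0 of 8. The part of these cells in the Cxcl10 and Ccl6 values was not tested.

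**Figure D4:**
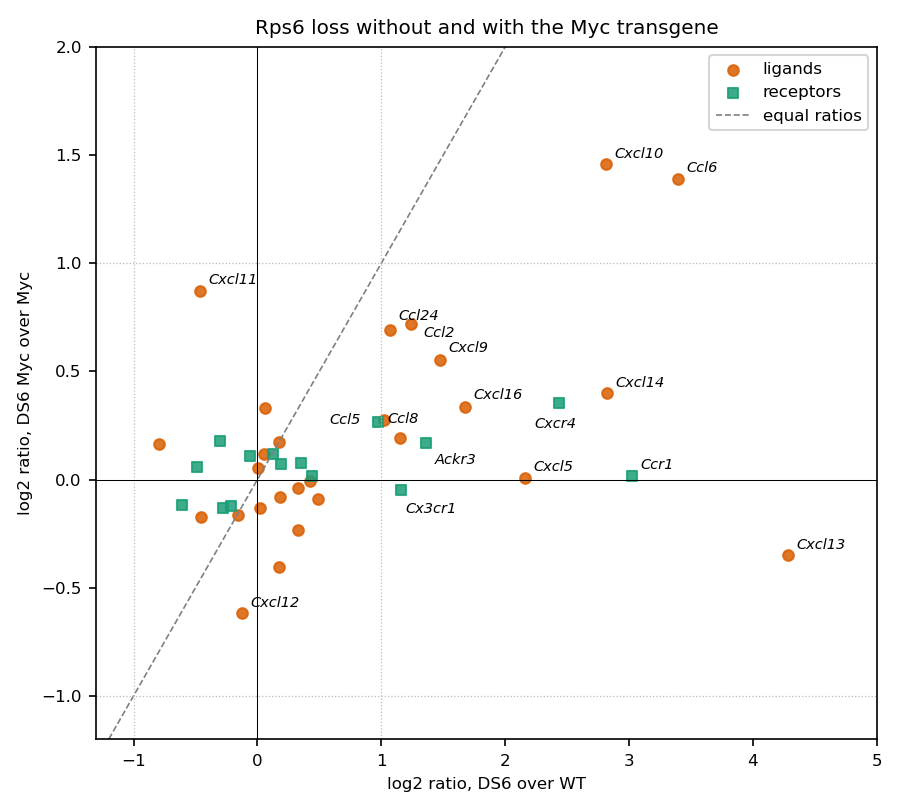
Log2 ratio in DS6 over WT (horizontal axis) against DS6 Myc over Myc (vertical axis), comparisons that share no array, for 27 ligands (circles) and 15 receptors (squares), with dotted lines at 2-fold. Cxcl10 (2.82 and 1.46) and Ccl6 (3.40 and 1.39) pass 2-fold on both axes, while Cxcl13 (4.28 and -0.35) and Ccr1 (3.03 and 0.02) pass it on the horizontal axis.

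Of the genes that carry the signal inside the cell, some were higher in DS6 and others near WT. Of 24 described genes of chemokine receptor signalling, 10 were at least 2-fold higher in DS6 than in WT and 0 lower, around a median of 0.75 on the log2 scale, and 8 were higher with Myc in place of WT, where 9.04% of all genes were higher over WT and 8.8% over Myc. In DS6 Myc 7 of the 24 lay 2-fold or more below DS6, where 5.37% of all genes did. In DS6 Myc over Myc 1 of the 24 was higher, where 2.51% of all genes were. Rac2, the leukocyte GTPase needed for directed migration, was at 8.98 in DS6 Myc, 10.30 in DS6, 8.28 in Myc and 8.19 in WT. Rgs2, a regulator that ends G protein signals, was at 8.33 in DS6 Myc, 10.27 in DS6, 6.59 in Myc and 6.27 in WT, and was the gene of this list that stayed past 2-fold in DS6 Myc over Myc. The beta-arrestins Arrb1 and Arrb2, which turn receptors off and take them inside, had ratios of 1.10 and 1.01 in DS6 over WT, and Arrb2 had 0.96 over Myc. The inhibitory G protein subunits Gnai2 and Gnai3 had 0.65 and 0.19, and Plcb2 and Dock2, of leukocyte signalling, -0.18 and -0.16.

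Of 16 described relatives of the family whose symbols the rule does not match, 5 were at least 2-fold higher in DS6 than in WT and 1 was lower, and their median log2 ratio was 0.75. Over Myc 6 were higher and 0 lower. The shares of all genes were 9.04% higher and 3.2% lower over WT, and 8.8% higher and 2.82% lower over Myc. Pf4, a platelet CXC chemokine also known as Cxcl4, had 8.38 in DS6 Myc, 8.90 in DS6, 8.07 in Myc and 8.12 in WT, and Ppbp, the platelet chemokine Cxcl7, had 6.46, 6.89, 6.55 and 6.21 in the same order. Of receptors for other attractants that neutrophils and macrophages follow, Fpr2, the formyl peptide receptor, had 2.46 in DS6 over WT. C5ar1, the complement C5a receptor, had 1.47. Cmklr1 and Ccrl2, of the same list, stayed under 2-fold with 0.85 and 0.46. Mmp8, a neutrophil collagenase that also trims CXC chemokines, had 2.59. Dpp4, a peptidase that removes the first residues of Cxcl10 and Cxcl12, was the lower gene, with 11.12 in DS6 Myc, 10.60 in DS6, 11.37 in Myc and 11.61 in WT. Its ratio of -1.01 in DS6 over WT was less than 2-fold over Myc.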

How the data were processed

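RNA of 3 mice per genotype was pooled and hybridized to Affymetrix mouse expression arrays, 1 per genotype. The authors made the deposited values, log2 expression values per probe set, by RMA followed by quantile normalization, and RMA and affy appear in the submitters' processing notes, with versions not given in the sources used here. Quantile normalization gives the arrays near equal distributions, so differences are relative to all probe sets, and dim probe sets have compressed ratios. Detection calls were not used here, and the number of arrays limits the precision. Of 45101 probe sets, 34958 have 1 gene symbol in the platform annotation and were used. Probe sets with several symbols are given apart. All 54 members' Entrez identifiers were found in RefSeq's gene table (GRCm38.p6). Log2 ratios were taken between arrays and counted at 2-fold, beside all genes at log2 6 or more on any array. No test was run. Every member that reached log2 6 on any array was named. The members, lists and comparisons were chosen with earlier results of these data known, and ligand and receptor pairs, roles and promoters after the values were seen. Alternatives were the mean of all probe sets, leaving out _x_at and _s_at probe sets, log2 7, median-centring, 1.5-fold and 4-fold, and the Myc array as reference. The counting was tested on simulated data. Python 3.11.15, numpy 2.4.6, pandas 2.3.3 and matplotlib 3.10.9 were used.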

Additional observations from a re-analysis of the deposited data

Results flagged for a closer look

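Some probe sets that were not used for a gene's value passed 2-fold in a comparison where the one used did not. In DS6 over WT these were Cxcl1 with log2 ratios of 2.05 and 1.5, Ccr2 with 1.64 and 1.63, and Cx3cl1 with 1.30. In DS6 Myc over DS6 the same probe sets had -1.63 and -1.33 for Cxcl1, -1.41 and -1.25 for Ccr2 and -1.09 for Cx3cl1, and one of Ackr4 had -1.12. In DS6 Myc over WT one of Cxcl14 had 1.99 and one of Cxcl12 -1.08. In DS6 Myc over Myc that of Cxcl14 had 1.25 and one of Ccl25 had 1.09. Cxcl13 by the probe set used was higher in DS6 over WT (4.28) and lower in DS6 Myc over Myc (-0.35). Its other probe set had 6.87 and 0.04, so the opposite sign is not seen there, and -0.35 is close to the SD of 0.28 between probe sets of a gene. The difference was not tested, since each genotype has 1 array.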

How the results depend on the processing

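Centring the arrays, leaving out _x_at and _s_at probe sets, and taking Myc in place of WT as reference left each class count within 1.5 times its value and each class median within the spread between probe sets of a gene (0.37 for DS6 over WT). With the mean of all probe sets, ligands at least 2-fold higher in DS6 Myc over DS6 numbered 0 instead of 1. At log2 7, where 8 receptors remained, the receptor median was 0.80 in DS6 over WT and -0.56 in DS6 Myc over DS6, by construction fewer and brighter genes. Counts moved with the threshold. The share of all genes was taken at 2-fold only, so the counts at 1.5-fold and 4-fold are not read against genes at large. Members that reached log2 6 on DS6 alone are among them. At 1.5-fold, 1 ligand and 1 receptor were lower in DS6 over WT, and 1 ligand was higher in Myc over WT. In DS6 Myc over WT, 5 ligands and 1 receptor were higher and 2 ligands lower. In DS6 Myc over DS6, 12 ligands and 5 receptors were lower and 2 ligands higher, and in DS6 Myc over Myc 5 ligands were higher and 1 lower. At 4-fold, 5 ligands and 2 receptors were higher in DS6 over WT, 1 ligand was higher in DS6 Myc over WT, 1 receptor was lower and 0 ligands higher in DS6 Myc over DS6, and 0 ligands were higher in DS6 Myc over Myc. Single genes depend more on the probe set: without _x_at and _s_at probe sets Cxcl1 in DS6 over WT was 2.05, and with the mean of all probe sets Cxcl9 was 0.73, Ccr1 1.83 and Cxcl13 5.57. Over Myc, Cxcl10 in DS6 was 2.08. No paired analysis was possible because each genotype has 1 array. Values below log2 6 may be background, which limits the folds of Cxcl5, Ccr1, Cxcr4, Ackr3 and Cxcr6. It also limits the ratios of the flagged probe sets of Cxcl14, Ccr2 and Ackr4.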

Other observations

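Probe sets annotated to several genes, 4 of which include a chemokine, were kept out of the counts. The probe set of the Ccl21 genes, whose products guide Ccr7-bearing lymphocytes and dendritic cells, had 7.96 in DS6 Myc, 8.82 in DS6, 7.92 in Myc and 7.93 in WT, a log2 ratio of 0.89 in DS6 over WT. That of Ccl19 and its copies had 0.35. The 2 that cover Ccl27a and its copies had -0.41 and -0.55, and the Ccl27a probe set with a single symbol had -0.80.

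Chromosomes 5 and 11 held 10 of the 15 members that were higher in DS6 over WT. Of described members, 5 of 8 on chromosome 5 and 5 of 10 on chromosome 11 were higher. On chromosome 9, where most CC receptor genes lie, 2 of 7 were higher. The counts were 2 of 6 on chromosome 1, 1 of 2 on chromosome 13 and 0 of 4 on chromosome 8. Over all genes 9.04% were higher. Cxcl5 (chromosome 5), Ccr1 (chromosome 9) and Cxcr4 (chromosome 1) reached log2 6 on DS6 alone. By probe sets not used, Cx3cl1 on chromosome 8 (1.30) and Ccr2 on chromosome 9 (1.64) also passed 2-fold. Neighbours differed, as for Ccl6 (3.40) beside Ccl9 (0.17). The counts by chromosome are a description with no test.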
